A study of Mus musculus with 4 samples.

Results

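This account follows 9 mouse genes of the interferon response: the transcription factors Stat2, Irf9, Irf1 and Irf7, the interferon-stimulated genes Ifit1, Ifit3 and Isg15, the ubiquitin ligase gene Trim25 and the ADP-ribosyltransferase family gene Parp9. The genes were chosen by their symbols as a known pathway, with earlier results of these data known. Every probe set annotated to them was read, 12 in all. Of the 9 genes, 8 have a probe set of their own, out of 12393 named genes on the array. The remaining gene, Isg15, shares its single probe set with the pseudogene Gm9706. RNA came from fibroblasts cultured from mouse embryos, of the strain labelled C57/BJ6. One array each was hybridised for total RNA and for ribosome-bound RNA (called polysome RNA here), separated by sucrose gradient, of cells labelled Npm1+/+ (the wild-type label) and Npm1+/- (the heterozygote label), so there are 4 groups of 1 array. Npm1 encodes nucleophosmin, a nucleolar protein of ribosome assembly, and the series concerns its germline mutations and the methylation of ribosomal RNA. No interferon or other agent is named for any group, and the labels do not say how many embryos or cultures stand behind an array.

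Type I interferons bind the receptor chains Ifnar1 and Ifnar2, whose kinases Jak1 and Tyk2 phosphorylate Stat2. Stat2 joins Irf9 in a complex that binds the interferon-stimulated response element (ISRE) in the promoters of genes such as Ifit1, Ifit3 and Isg15. Interferon gamma acts at a different element, the gamma-activated site (GAS), of which the one in the Irf1 promoter is a classic example. Irf7 amplifies interferon production. In fibroblasts without infection these target genes are usually kept at a low tonic level.

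The promoters of 5 of the 9 genes are shown because a match to the ISRE or the GAS was found in them. Sequences are from RefSeq, build GRCm38.p6, and are written along the gene's own strand. Windows of 250 bases before to 50 after the annotated start were searched on both strands for the ISRE core GAAANNGAAA and the GAS core TTCNNNGAA, and matches are in capitals (a match on the opposite strand shows as its reverse complement). The GAS pattern is its own reverse complement, so a match is found at the same place on both strands.
Isg15, chr4:156200855-156200916, minus strand: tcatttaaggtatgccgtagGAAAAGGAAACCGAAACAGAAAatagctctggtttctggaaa
Ifit1, chr19:34640765-34640833, plus strand: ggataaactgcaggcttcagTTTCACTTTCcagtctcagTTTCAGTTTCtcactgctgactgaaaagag
Ifit3, chr19:34583353-34583436, plus strand: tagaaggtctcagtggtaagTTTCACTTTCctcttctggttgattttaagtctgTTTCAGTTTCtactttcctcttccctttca
Stat2, chr10:128270256-128270305, plus strand: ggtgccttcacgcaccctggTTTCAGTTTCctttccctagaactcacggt
Irf1, chr11:53769904-53769952, plus strand: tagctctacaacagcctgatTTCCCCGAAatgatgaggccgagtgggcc

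The windows covered 8 of the 9 genes (10 windows, with 2 each for Irf1 and Irf9), all but Parp9. Isg15 had 3 overlapping ISRE cores between -78 and -57 from its start, Ifit1 had 2 (at -104 and -85), Ifit3 had 2 (at -156 and -122), and Stat2 had 1 (at -222). The ISRE core was thus found in 4 of 8 genes, against 1131 of 32851 windows (3.44%) and 3.99% of the 27025 genes in the table. The GAS core was found in Irf1 alone among the 8, from -90 to -82, against 8.3% of all windows and 9.55% of the genes. Both cores occurred in 149 windows and overlapped in 24 of them, none of these a window of the 9 genes. Of 36 other interferon-stimulated genes from a list of the pathway, 16 held the ISRE core, among them Oas1a, Rsad2, Eif2ak2, Bst2 and Ifitm3. The GAS core was held by 11 of the 36. These matches describe letters in a window and say nothing of binding in these cells.

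**Figure D1:**
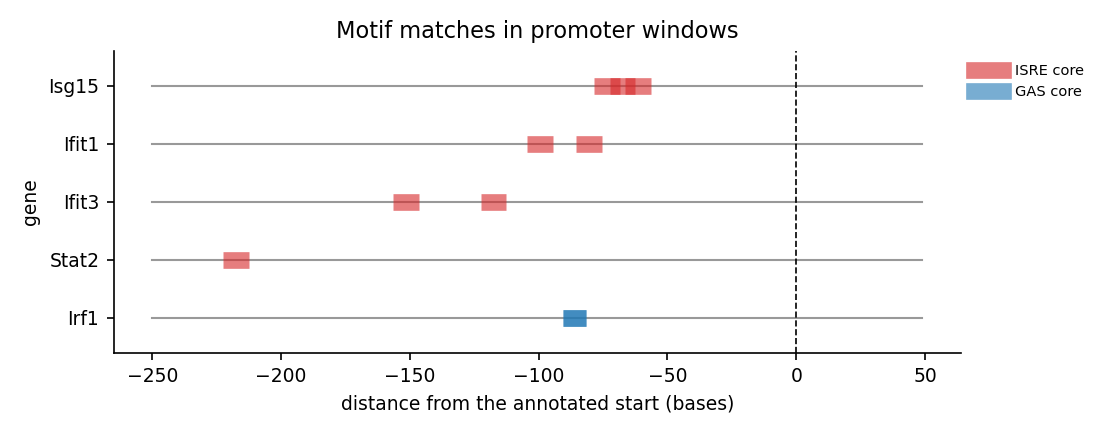
Positions of the ISRE cores (red) and the GAS core (blue) in the promoter windows of 5 genes; the horizontal axis is the distance from the annotated start in bases, from 250 before to 50 after it. Ifit1 and Ifit3 each hold 2 ISRE cores, Isg15 holds 3 that overlap, and Stat2 holds 1 farther from its start.

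Values are log2 levels as deposited, normalised by RMA, and the 4 arrays had medians between 7.47 and 7.59. With 1 array per group there is no spread between samples, no test and no p-value, and every difference below lacks a replicate check. To show how far probe sets of a gene disagree, the 2 brightest probe sets of the same gene were compared. Both are read from the same arrays, so error shared by all probe sets of an array or culture is not in this SD. A difference beyond the SD is therefore not shown to be one between genotypes or fractions, and one within it is not shown to be absent. Among genes with both at the floor (7.53, the median of all values), their differences varied with an SD of 0.32 between genotype labels in total RNA and 0.28 in polysome RNA (2700 genes). Polysome against total RNA gave 0.28 for the wild-type and 0.24 for the heterozygote label. Among genes with both below the floor the same SDs were 0.29, 0.24, 0.45 and 0.43 (1656 genes). Npm1 did not separate the genotype labels: its probe sets differed by 0.05 and 0.07 in total RNA and by -0.09 and 0.06 in polysome RNA, so every direction below is between arrays as labelled. Whether these probes fall inside the altered stretch of Npm1 is not stated in the sources used here. All 12 fibroblast markers reached the floor, with a mean log2 level of 11.84 to 12.25 per array. Of 14 macrophage markers 9 did, as did 7179 of the 12393 named genes. In total RNA the floor was met by Lyz2, Csf1r and Laptm5 alone. The rest of the 9 passed it through polysome arrays only, where their values are higher, so nothing is read from that count.

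The probe sets were spread on both sides of the median of all values, which by construction has as many values below as above it. Of the 12 probe sets, 3 lay above the median of all values on all 4 arrays, namely the single probe set of Irf1 and 2 of the 3 of Trim25. Another 3 were above it on some arrays: Irf9 on 3, Parp9 on the 2 polysome arrays, and the probe set shared by Isg15 and Gm9706 on 1. The other 6 stayed below it throughout, namely both probe sets of Stat2, the third of Trim25 and those of Irf7, Ifit1 and Ifit3. The shares of all probe sets in these classes are not given here, so nothing is read from the counts. The 4 genes that reached the floor by their brightest probe set were Irf1, Irf9, Trim25 and Parp9, and the other 4 of 8 did not, as was true of 5214 of the 12393 named genes. Levels of different probe sets are not compared with each other here, since probes differ in brightness. All array values are of bulk RNA, in which fewer cells of a type and less RNA per cell cannot be told apart.

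**Figure D2:**
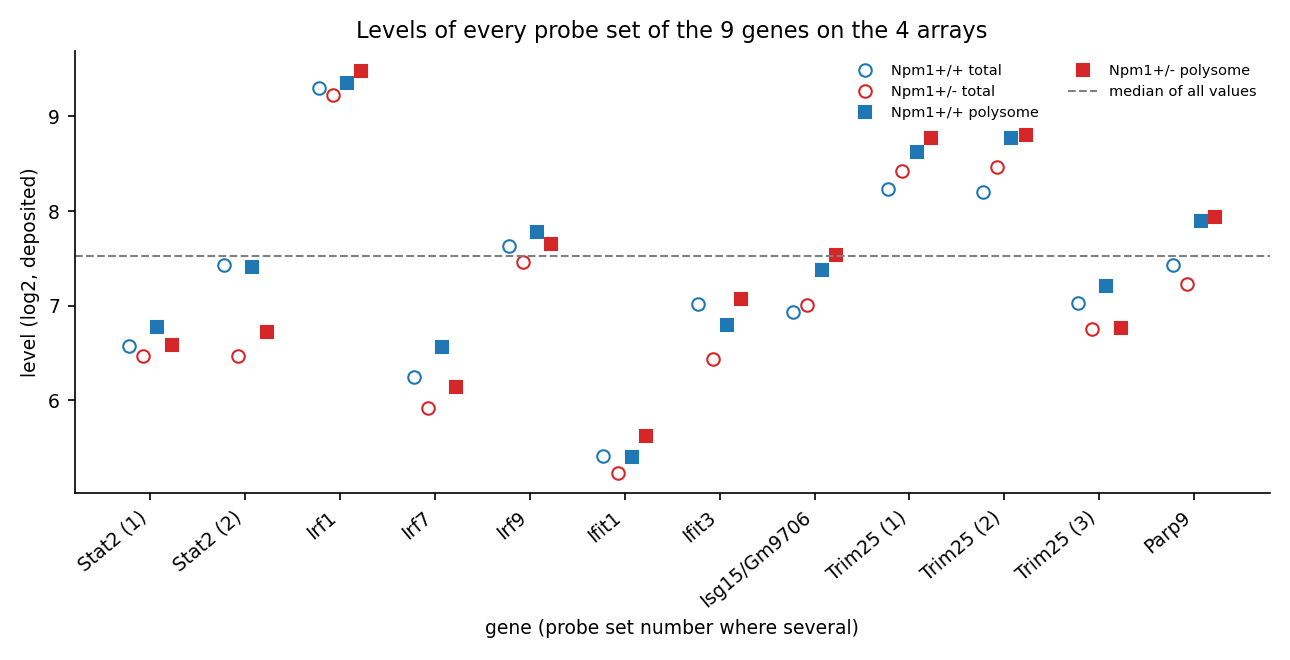
Log2 levels of the 12 probe sets (horizontal axis, with probe set numbers where a gene has several) on the 4 arrays; open circles are total RNA, squares polysome RNA, blue the Npm1+/+ and red the Npm1+/- label, and the dashed line is the median of all values. Irf1 and 2 probe sets of Trim25 lie above the line on all arrays, and the brighter Stat2 probe set separates by genotype label whereas the other does not.

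Stat2 is a subunit of the type I interferon complex and carries its activation domain. Its brighter probe set (1450403_at) read 7.43 in total RNA under the wild-type label and 6.47 under the heterozygote label, and 7.41 and 6.72 in polysome RNA. Both arrays with the heterozygote label were therefore below both with the wild-type label, by 0.96 on total RNA (1.94-fold) and 0.69 on polysome RNA (1.61-fold). Among the 12393 named genes, 133 had a lower difference in total RNA and 314 in polysome RNA. Centring each array on its median took the first difference to -1.01 and the loess trend took it to -0.90. The dimmer Stat2 probe set (1421911_at), annotated to the same GenBank entry, did not follow: it read 6.57 and 6.47 in total RNA and 6.77 and 6.58 in polysome RNA, differences of -0.10 and -0.20. The gap of 0.86 between the probe sets in total RNA is larger than the SD of 0.29 between dim probe sets, and the mean of both gave -0.53 and -0.44. Neither reached the floor on any array, and which of them tracks the Stat2 transcript was not tested.

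Irf9 is the DNA-binding subunit of that complex. Its probe set (1421322_a_at) read 7.63 and 7.46 in total RNA (wild-type and heterozygote label) and 7.78 and 7.65 in polysome RNA, a range of 0.32 over the arrays. Its differences between genotype labels, -0.17 and -0.13, lay within the SD between probe sets, as did those between fraction labels (0.15 and 0.19).

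Irf1 is a transcription factor induced by interferon gamma. Its probe set (1448436_a_at) read 9.30 and 9.22 in total RNA and 9.35 and 9.48 in polysome RNA, a range of only 0.26. Genotype labels differed by -0.08 in total and by 0.13 in polysome RNA, the latter going to 0 after the loess trend was subtracted. Between fraction labels it was 0.06 under the wild-type label, which turned negative under each of the other 3 scalings, and 0.26 under the heterozygote label.

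Irf7, the regulator of interferon production (1417244_a_at), read 6.25 and 5.92 in total RNA and 6.56 and 6.14 in polysome RNA, all below the floor. Both arrays with the heterozygote label were below both with the wild-type label, by 0.34 (1.26-fold) and 0.41 (1.33-fold), larger than the SDs of 0.29 and 0.24 between dim probe sets. These differences kept their sign under the other scalings, at -0.24 to -0.38 and -0.36 to -0.42. Between fraction labels Irf7 differed by 0.30 and 0.22, within the SD between dim probe sets.

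Ifit1 and Ifit3 encode proteins with tetratricopeptide repeats, of which Ifit1 binds viral RNA caps and Ifit3 is its partner. Ifit3 (1449025_at) read 7.02 and 6.44 in total RNA under the wild-type and heterozygote label, but 6.80 and 7.07 in polysome RNA. Its lowest array was thus total RNA under the heterozygote label and its highest was polysome RNA under the same label. The heterozygote label was lower by 0.58 in total RNA and higher by 0.27 in polysome RNA. The polysome array was lower than the total array by 0.22 under the wild-type label and higher by 0.63 under the heterozygote label (1.55-fold). Subtracting the wild-type value from the heterozygote value gives the association difference of a gene, which was 0.85 for Ifit3. Only 4 of 12393 named genes had a higher one (D2hgdh, Csdc2, Kpnb1 and Nnt, named after their values were seen), and it stayed between 0.81 and 0.89 under the other scalings. The SD of this quantity between dim probe sets of a gene was 0.29. Ifit3 never reached the floor and has 1 probe set here.

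Ifit1 (1450783_at) took the same order of arrays: 5.41 and 5.23 in total RNA and 5.40 and 5.62 in polysome RNA. Its association difference was 0.40, with 279 genes above it, and it stayed between 0.35 and 0.44 under the other scalings. Between genotype labels Ifit1 differed by -0.18 and 0.22, both within the SD between dim probe sets, and between fraction labels by -0.01 and 0.40. The value of -0.01 turned positive under quantile normalisation and the loess trend. The neighbouring family member Ifit2, set beside them after its values were seen, took another order, at 6.20 and 6.63 in total RNA and 6.98 and 7.51 in polysome RNA, with an association difference of 0.11.

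The probe set shared by Isg15, a ubiquitin-like protein that is attached to other proteins, and the pseudogene Gm9706 (1431591_s_at) read 6.93 and 7.01 in total RNA and 7.38 and 7.54 in polysome RNA. Both polysome arrays were above both total arrays, by 0.45 and 0.53, while genotype labels differed by 0.08 and 0.16. Which of the transcripts it measures cannot be told apart, so it is left out of the counts below.

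Trim25 encodes a ubiquitin ligase that activates the RNA sensor RIG-I. Its brightest probe set (1425974_a_at) read 8.20 and 8.47 in total RNA and 8.77 and 8.80 in polysome RNA, and a similar one (1419879_s_at) read 8.23 and 8.42, and 8.62 and 8.77. On both, the polysome arrays were above the total arrays, by 0.57 and 0.33 on the first and 0.39 and 0.35 on the second, all beyond the SD between probe sets. The third (1426415_a_at), below the floor, read 7.03 and 6.75, and 7.21 and 6.76. There the fraction labels differed by 0.17 and 0.01, and the genotype labels by -0.28 and -0.44, where the brightest gave 0.28 and 0.04. The gap of 0.56 in total RNA makes the genotype direction of Trim25 depend on the probe set, and at the brightest the 0.04 in polysome RNA turned to -0.06 with the loess trend subtracted.

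Parp9, which acts with Dtx3l and is induced by interferon (1416897_at), read 7.43 and 7.23 in total RNA and 7.89 and 7.94 in polysome RNA. It was above the floor on the polysome arrays only. Its polysome arrays were above its total arrays by 0.46 under the wild-type label (1.37-fold) and 0.71 under the heterozygote label (1.63-fold), and 0.32 to 0.46 and 0.58 to 0.71 over the scalings. Both exceed the SDs of 0.28 and 0.24 between bright probe sets, but against the 0.45 and 0.43 of dim ones the value under the wild-type label is level and only that under the heterozygote label is larger. In the second comparison 188 of 12393 named genes had a higher value. Genotype labels differed by -0.20 and 0.05, within the SD between probe sets.

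None of the genes passed a 2-fold difference in any of the 5 comparisons. Of the 4 genes at the floor 0 did so, where the share of the 7179 genes at the floor past 2-fold was 1.73% between genotype labels in total RNA, 1.25% in polysome RNA, 0.919% and 0.766% for polysome against total RNA (wild-type, then heterozygote label), and 0% for the association difference. Among all 8 genes with a probe set of their own it was also 0, against 1.04%, 0.767%, 0.855%, 0.767% and 0% of all named genes in the same order. Past 1.5-fold, Stat2 was lower between genotype labels in total RNA (1 of 8 genes, against 8.59% of the 12393 named genes either way) and in polysome RNA (1 of 8, against 5.05%). Between fraction labels the count was 0 of 8 (6.85%) under the wild-type label and 2 of 8 (5.12%) under the heterozygote label, Parp9 and Ifit3, both higher in polysome RNA. For the association difference it was Ifit3 (1 of 8, against 0.403%). At the floor alone, the 1.5-fold counts of the 4 genes were 0, 0, 0, 1 (Parp9) and 0, against 13.7%, 7.94%, 5.21%, 3.59% and 0.306%. Parp9 reached the floor only through its polysome arrays, where it is high, so nothing is read from that count. Ifit3 in total RNA and Trim25 under the wild-type label lay just short of 1.5-fold.

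In total RNA 7 of the 8 genes were below 0 between genotype labels, all but Trim25, whereas 47% of all named genes were. The median of the 8 was -0.19, against 0.02 over all named genes, and that of the 4 at the floor was -0.12, against 0.19 over the 7179 genes at the floor. None of these 8 signs turned under the other scalings, which moved the median gene from 0.19 to between 0 and 0.14. In polysome RNA 3 of the 8 were below 0 (45.1% of all named genes), namely Stat2, Irf7 and Irf9, and the median was 0.04 both over the 8 and over the 4 at the floor, against 0.02 and 0.11. All genes of a comparison are read from the same pair of arrays, so their shared direction is not 8 separate observations.

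**Figure D3:**
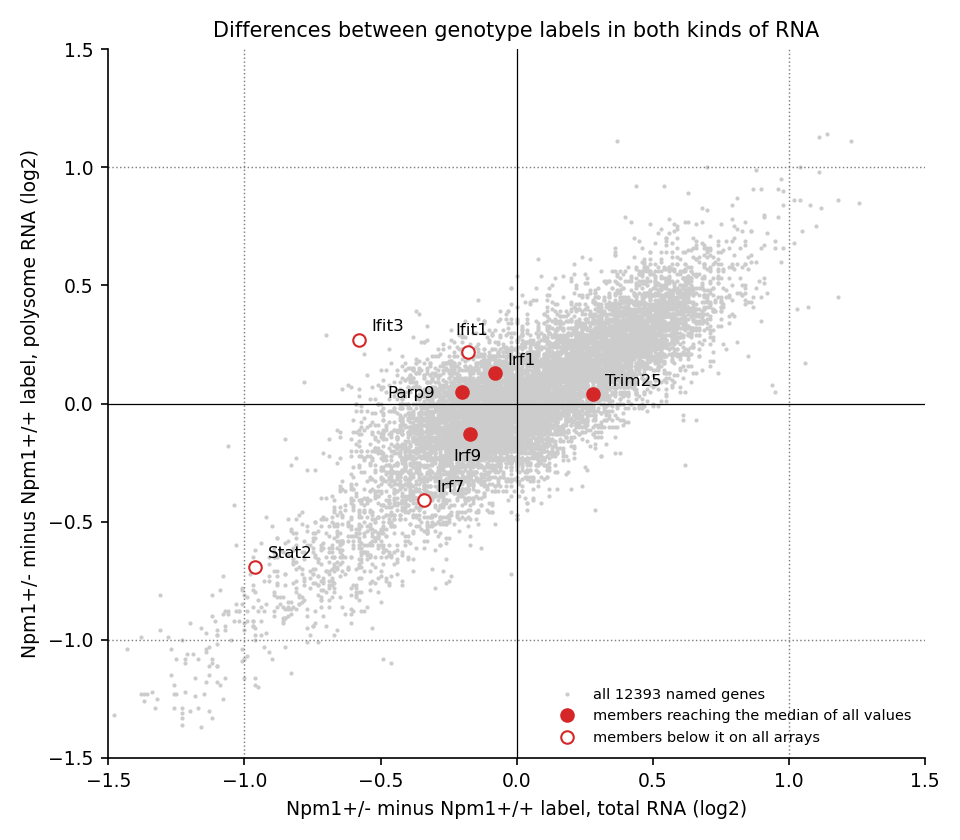
Difference between the Npm1+/- and Npm1+/+ label in total RNA (horizontal axis, log2) and in polysome RNA (vertical axis, log2) for the 8 genes in red (filled where the gene reached the median of all values) and for all 12393 named genes in grey; dotted lines mark 2-fold and 23 genes lie outside the axes. Stat2 and Irf7 are below 0 on both axes, and Ifit3 lies to the upper left, at -0.58 and 0.27.

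Between fraction labels, all 8 genes were above 0 under the heterozygote label (58.6% of all named genes), from 0.19 for Irf9 to 0.71 for Parp9, with a median of 0.30 against 0.05. Under the wild-type label 5 of 8 were (62.6%), with Stat2, Ifit1 and Ifit3 at -0.02, -0.01 and -0.22, and a median of 0.10 against 0.09. The other scalings took the median gene at the floor from 0.14 to 0.01 or 0.02 under the wild-type label. All 8 stayed above 0 under the heterozygote label with each scaling. The association difference was above 0 in 6 of 8 genes, all but Irf7 and Trim25 (43.5% of all named genes), with a median of 0.23 against -0.03; it is built from the same 4 arrays as the other comparisons.

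Macrophage markers differed between the same arrays. Their mean log2 level over 14 genes was 6.36 and 6.62 in total RNA (wild-type and heterozygote label) and 7.38 and 7.62 in polysome RNA, and 13 and 11 of them were above 0 between fraction labels (62.6% and 58.6% of all named genes). C1qb, with the largest differences of the 14 between fraction labels, read 5.98 and 6.06 in total and 8.42 and 9.03 in polysome RNA. Of the markers at the floor in total RNA, Lyz2 differed by 2.23 and 2.25 between fraction labels. Csf1r differed by only 0.05 and -0.22, and Laptm5 by 0.14 and 0.04. Ptprc (4.53 to 4.87) and Adgre1 (5.64 to 6.17) stayed far below the floor on all arrays. Between genotype labels 14 of the 14 were above 0 in total RNA and 11 in polysome RNA (51.7% and 52.9% of all named genes), with medians of 0.18 and 0.19. Their part in the values of the interferon genes was not tested. The mean levels of lymphocyte (8 genes), endothelial (6) and epithelial (5) markers lay between 5.56 and 6.33 on every array, and that of 4 plasmacytoid dendritic cell markers between 5.95 and 6.11.

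**Figure D4:**
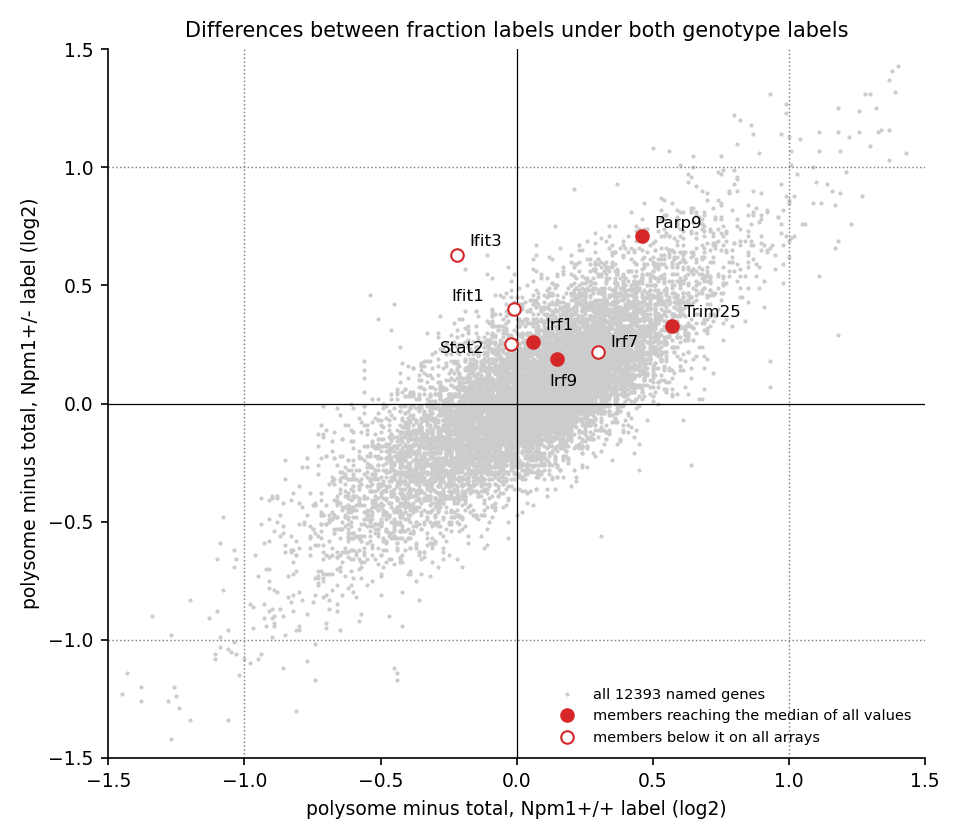
Difference between polysome and total RNA under the Npm1+/+ label (horizontal axis, log2) and the Npm1+/- label (vertical axis, log2) for the 8 genes in red (filled where the gene reached the median of all values) and all 12393 named genes in grey; dotted lines mark 2-fold and 23 genes lie outside the axes. All 8 genes are above 0 on the vertical axis, Parp9 and Trim25 lie farthest to the upper right, and Ifit3 lies at -0.22 and 0.63.

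The rest of the pathway was read from 8 lists by role, with 90 named genes, of which 44 reached the floor, as did 7179 of the 12393 named genes. That share applies beside each count at the floor given by list below, and nothing is read from these counts. None of the 7 interferon ligand genes reached the floor, and Ifnb1 read 6.16 and 6.07 in total RNA and 6.50 and 6.47 in polysome RNA. All 8 receptor and kinase genes reached it. Their median between genotype labels was 0.37 in total and 0.19 in polysome RNA, 7 and 6 of the 8 above 0 (66.1% and 62.9% of genes at the floor), and it stayed above 0 (0.15 and 0.06 at the lowest) under the other scalings. Ifnar1, a chain of the type I receptor, read 8.39 and 9.08 in total RNA and 8.75 and 9.15 in polysome RNA, and Il10rb, a chain shared with the type III receptor, differed by 0.50 and 0.36. Jak1 went the other way, at 10.52 and 9.77 in total RNA and 10.75 and 10.14 in polysome RNA, and its other probe sets gave -0.73 and -0.67, and -1.66 and -1.80.

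Of 6 other STAT and IRF genes with a named probe set 2 reached the floor. Stat3, which carries signals of the interleukin-6 family, read 10.83 and 9.81 in total RNA and 10.96 and 10.08 in polysome RNA, differences of -1.02 (2.03-fold lower) and -0.88. A second bright probe set gave -1.02 and -0.77, and a dim one -0.10 and -0.18. Stat3 was the single gene of the 44 past 2-fold between genotype labels in total RNA (1.73% of genes at the floor). In polysome RNA none was (1.25%). Irf3, the factor activated by nucleic acid sensors, differed by 0.23 and 0.02, and both values turned sign under another scaling. A second Irf3 probe set at the floor gave 0.19 and -0.01, while its 2 dim probe sets gave -0.53 and -0.05 in total RNA.

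Of 9 negative regulators 6 reached the floor. Their median between genotype labels was 0.18 in total RNA, which turned to -0.03 under another scaling, and 0.28 in polysome RNA. The phosphatase genes Ptpn1 (0.62 and 0.43), Ptpn11 (0.48 and 0.36) and Ptpn2 (0.37 and 0.30) were higher under the heterozygote label, under each scaling, although a second Ptpn1 probe set gave 0.08 and 0.39 and dim ones of Ptpn11 -0.32 and 0.04 in total RNA. Among the 10 genes of the nucleic acid sensing list 5 reached the floor, with medians of 0.06 and -0.04. The list also holds the receptor gene Tlr4, which is not itself a nucleic acid sensor. Of these 5 genes Tlr4 had the largest difference, 0.42 and 0.31. It reached the floor only in total RNA under the heterozygote label (7.61), its highest array, so nothing is read from that rank. Ifih1, below the floor on every array, differed by -0.61 and -0.15. Mavs, the mitochondrial adaptor of RIG-I, differed by 0.12 (negative under another scaling) and -0.04, with 0.24 and 0.19 at a dim probe set, and Tank by 0.06 (likewise) and 0.25.

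The list closest in kind to Ifit1, Ifit3 and Isg15 held 42 other interferon-stimulated genes, of which 19 reached the floor. Their medians between genotype labels were 0.15 in total and 0.04 in polysome RNA, both turning sign under another scaling. Over all 42 genes 26 were below 0 in total RNA and 21 in polysome RNA (47% and 45.1% of all named genes). The medians of the 42 were -0.06 and 0.01. Of the 19, 0 passed 2-fold in any of the 5 comparisons, where 0% to 1.73% of all genes at the floor did. The largest differences were those of Lgals3bp (-0.56 and -0.63), the peptide transporter gene Tap1 (-0.33 and -0.55) and the proteasome activator gene Psme1 (0.55 and 0.37). The direction of Tap1 in total RNA depends on the probe set, since its 3 dim ones gave 0.05, 0.07 and 0.01. Between fraction labels the medians were 0.12, which turned to -0.01 under another scaling, and 0.14, with 15 and 13 of 19 above 0 (75.6% and 65.1% of genes at the floor). Over all 42 genes 26 and 24 were above 0 between fraction labels, near the shares of all named genes (62.6% and 58.6%).

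Of 5 genes that work with Isg15 or Parp9, 3 reached the floor. Parp1, the main DNA-damage-responsive member of the family, differed between genotype labels by -0.57 and -0.80, and by -0.52 and -0.50, and -0.78 and -0.71, at its other probe sets. Uba7, the activating enzyme for Isg15, differed between fraction labels by -0.55 and -0.31 at its brightest probe set, by -0.11 and -0.05 at the second and by 0.13 and 0.14 at a dim one, so its direction depends on the probe set. Parp12, like Parp9 induced by interferon, was higher in polysome RNA by 0.35 and 0.36. Of the p200 family only Ifi202b reached the floor, in total RNA, where it read 8.27 and 8.37 against 5.14 and 5.05 in polysome RNA, the opposite direction to Parp9 and Trim25. It was the single gene of the 44 past 2-fold between fraction labels (0.919% and 0.766% of genes at the floor). It passed the floor through its total arrays alone, so nothing is read from that count.

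**Figure D5:**
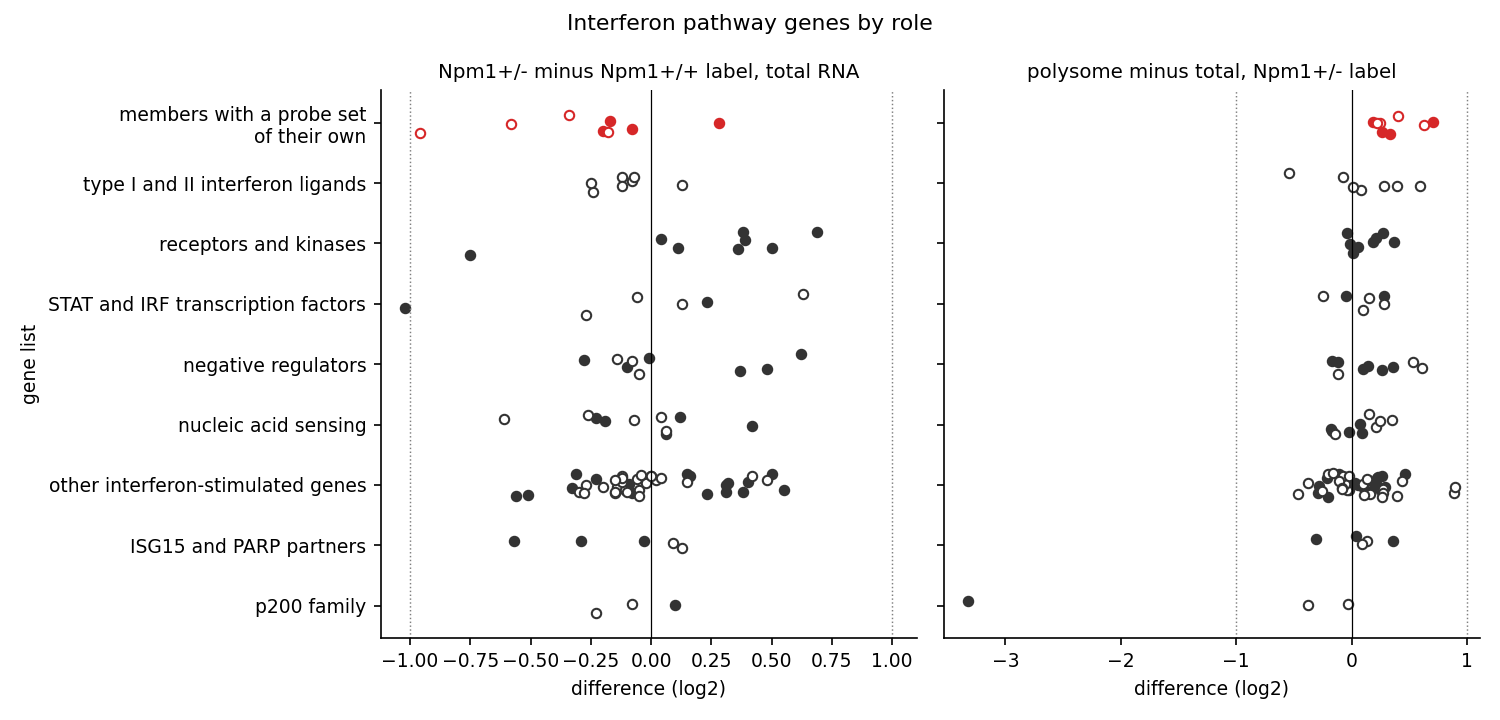
Differences between genotype labels in total RNA (left, log2) and between fraction labels under the Npm1+/- label (right, log2) for the 8 genes (red) and the 90 genes of the pathway lists (black), 1 point per gene with random vertical spread; open points never reached the median of all values, and dotted lines mark 2-fold. In the left panel 7 of the 8 genes lie below 0 and the receptor genes mostly above it; in the right panel all 8 lie above 0 and Ifi202b stands alone at -3.32.

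For the 3 genes at the floor with the widest range, the named genes with the most similar profile over the 4 arrays were found by the root mean square distance between values, each gene taken minus its own mean. For Parp9 these were Rtn4r (distance 0.0171), Rabep1 (0.0426) and Suclg2 (0.0454), with 45 genes (0.627% of those at the floor) within 0.1. For Trim25 they were Dtymk (0.00852), Crlf2 (0.0125) and Ndrg1 (0.0137), with 334 genes within 0.1, and for Irf9 Plet1 (0.00816), Atp6v1g1 (0.0101) and Srrm1 (0.0108), with 859. None of these 9 neighbours is on a pathway list. With 4 values per profile many genes are as close, and the distances are a description.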

How the data were processed

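Expression was measured on 4 arrays, 1 per group, and groups were taken from the sample titles. The table the authors deposited holds normalised log2 levels of 22690 probe sets. RMA, the affy package 1.56.0 and R 3.4.3 are listed per the submitters' processing notes. Settings and a genome build are not given in the sources used here. Precision is limited by having 4 arrays. Genes were named from the platform annotation where a probe set has 1 symbol (20380 probe sets, 20351 with an Entrez number in RefSeq; 691 have several and 1606 are not listed), without the 64 manufacturer controls. For each of 12393 genes the probe set of highest mean level was taken, and 7179 reached the floor, a highest value at or above the median of all values. Differences of log2 values were taken in Python 3.11.15 with pandas 2.3.3, counted at 2-fold and 1.5-fold. Of the 9 genes every probe set was named; of each pathway list, genes past 2-fold and up to 3 with the largest difference; and for 3 genes the 3 nearest profiles. On simulated arrays the differences, quantile normalisation and subtraction of a loess trend were checked. The other steps were not part of that check. The members, lists and rules were chosen with earlier results of these data known. As alternatives, probe sets of a gene were averaged, those of type _x_at and _s_at dropped, the floor removed or set to the 75th percentile (9.33), and values rescaled by centring on the median of the named genes, quantile normalisation or subtraction of a loess trend (span 0.3); a 1.5-fold threshold was also used.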

Additional observations from a re-analysis of the deposited data

Results flagged for a closer look

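Several genes had differences of opposite sign in a pair of matched comparisons; with 1 array per group the difference between them was not tested. Between genotype labels in total and polysome RNA these were Ifit3 (-0.58 and 0.27), Ifit1 (-0.18 and 0.22), Parp9 (-0.20 and 0.05) and Irf1 (-0.08 and 0.13). Between polysome and total RNA (wild-type label, then heterozygote label) they were Ifit3 (-0.22 and 0.63), Ifit1 (-0.01 and 0.40) and Stat2 (-0.02 and 0.25). Only the Ifit3 values of -0.58, 0.27 and 0.63 among these exceeded the SD between dim or bright probe sets that applies to the gene and comparison. The share of all named genes with opposite signs is not given here, so nothing is read from how many genes are listed. Both pairs of comparisons are built from the same 4 arrays.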

How the results depend on the processing

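Of 75 counts and medians recomputed for the set, 74 stayed within 1.5 times the count or within the SD between probe sets. The exception was the count of genes at the floor between fraction labels under the heterozygote label, 0 at 2-fold and 1 at 1.5-fold (Parp9, which reached the floor only through its polysome arrays). All the other counts were 0 under each alternative, so their stability adds little. The medians of the genes at the floor ranged over all alternatives from -0.22 to -0.08 and from -0.03 to 0.13 between genotype labels in total and polysome RNA; the floor at the 75th percentile left 1 gene, Irf1. Of 40 differences of single genes 35 kept their sign and 5 did not. Of 200 recomputed values 198 moved by less than the SD between probe sets. The other 2 were those of Stat2 between genotype labels, at -0.53 and -0.44 with the mean of its probe sets, which includes the dimmer one. Dropping _x_at and _s_at probe sets could move none of the 200 values. Averaging could move only those of Stat2 and Trim25, the genes with several probe sets. Part of the 198 was therefore fixed in advance. Of the 8 genes 4 lie below the floor, where signal over background limits what a difference can show. No paired analysis was possible because each group has 1 array, so the groups share only 1 replicate number.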
